A study of Bos taurus with 24 samples.

Results

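Bovine muscle satellite cells were compared with and without fibroblasts in a co-culture plate, 24 h after the serum change that starts differentiation. The comparison uses 8 of the 24 RNA-seq libraries of the series. These are 4 libraries titled as coculture and 4 titled as monoculture at that time, chosen by their titles alone. The satellite cells were a pool of 3 wild-type lines at passage 3 from the longissimus dorsi, a back muscle, and the fibroblasts were at passage 10. Both were seeded at 8000 cells/cm2, and the co-culture plates had pores of 0.4 µm. The medium was DMEM of high glucose content, and it held 20% fetal bovine serum. After 5 days both cultures received medium with 10% horse serum in its place. No label says that the 4 libraries of a group are separate cultures. The p-values therefore speak of the spread among these libraries, which may be technical. Whether the wells without fibroblasts held an insert is not stated either.

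Satellite cells are the stem cells of skeletal muscle. When serum is lowered they leave the cell cycle, switch on the myogenic factors and fuse into fibres. Fibroblasts of the connective tissue around them secrete matrix, proteases, growth factors and cytokines, and a porous membrane lets what is dissolved in the medium pass between the cells.

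Library totals at 24 h were 16.22 to 23.87 M counts in monoculture and 16.76 to 22.17 M in coculture. Coculture replicates 3 and 4 were sequenced in lane 7, and the other 6 libraries in lane 6. The library descriptions also carry a code of unstated meaning, 1 in all monoculture and 2 in all coculture libraries of 24 h, so whatever it marks cannot be told apart from the culture. Both cultures carry code 2 in proliferation. Within coculture, 18 of 11937 genes (0.151%) differed between the lanes by edgeR's quasi-likelihood test, all lower in lane 7, and 1 of them was also called between the cultures. Nuclear ribosomal RNA made up 0.281 to 0.934% of monoculture counts. In coculture the share was 0.708 to 0.815% in 3 libraries and 4.07% in replicate 2. The 5.8S rRNA gene 5_8S_rRNA passed the test on that library: it was at 1541 CPM there and at 12.3 to 86.9 CPM in the other 7. Its log2 fold change was 3.37 (adjusted p = 0.0378) with coculture replicate 2 and 0.312 (adjusted p = 0.874) without it. The first principal component of the 8 libraries held 41.2% of the variance and put all monoculture libraries at -14.52 to -11.64 and all coculture libraries at 11.36 to 14.26.

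The markers that define satellite cells could be checked only in part. PAX7, MYF5, MYOD1 and CDH15 were not among the genes listed, which hold only genes with at least 6 counts in every library used. ITGA7, NCAM1, DES, MET, SDC4 and CD82 were listed. Of 16 leukocyte markers 2 were listed, with a summed level of 2.32 to 3.26 CPM in monoculture and 2.09 to 2.97 CPM in coculture, and neither was called. In bulk RNA, fewer cells of a type and less RNA per cell cannot be told apart.

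Coculture changed many genes by small amounts. Levels are given as CPM, read counts relative to the library total with TMM scaling. Changes are log2 fold changes, coculture relative to monoculture, with standard errors (SE). Genes with an adjusted p below 0.05 count as called (edgeR quasi-likelihood, Benjamini-Hochberg over all genes). Of 11937 genes, 2836 (23.8%) were called: 1376 rose (11.5%) and 1460 fell (12.2%). The counts given for gene lists below are to be read against these shares. Called changes had a median size of 0.269 on the log2 scale and a 90th percentile of 0.603. A change of 2-fold or more was reached by 26 rises and 32 falls. In 2911 genes (24.4%) the 4 libraries of one culture all lay above the 4 of the other, 1448 higher in coculture (12.1%) and 1463 lower (12.3%). With the libraries of lane 6 alone, 6 of them at 24 h, 1746 genes were called (804 rose and 942 fell). Of these 1663 were among the 2836, and no called gene changed direction. The spread in this fit was also estimated from the lane 6 libraries of the other times.

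**Figure D1:**
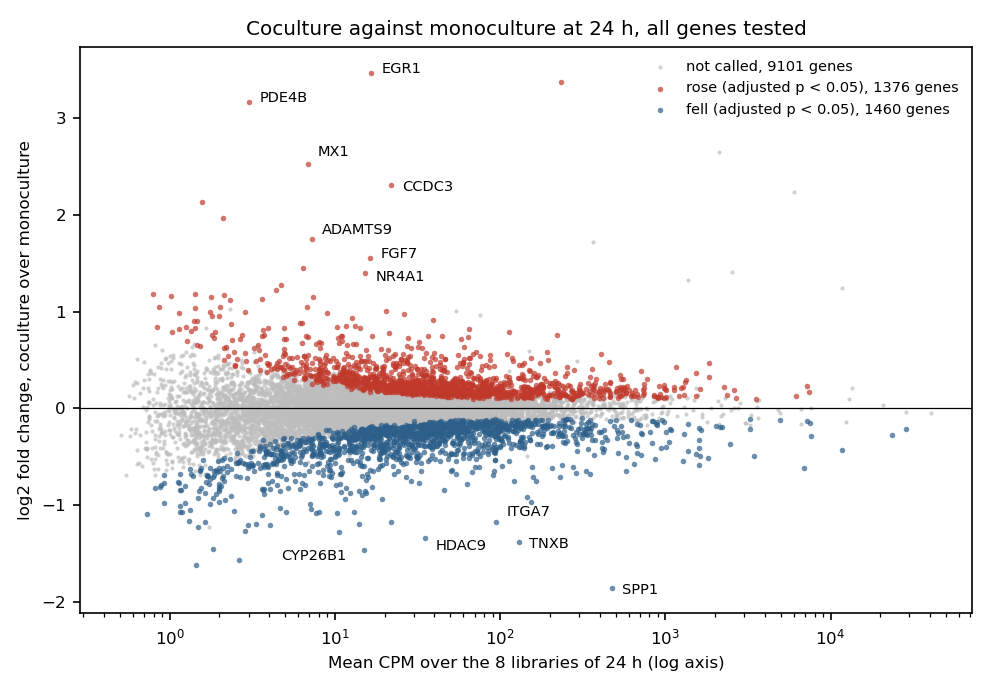
Each point is 1 of 11937 genes: the mean CPM over the 8 libraries (log axis) against the log2 fold change (coculture over monoculture), with 1376 rises in red, 1460 falls in blue and genes not called in grey. Most called genes lie close to 0, and the labelled genes are those the text describes.

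The 15 rises and 15 falls named for size were picked only among genes whose groups did not overlap. Their separation, given below, therefore follows from the rule. The largest named rise among them was in an immediate early gene. Genes of this class are switched on within minutes of a growth factor or stress signal without new protein synthesis. EGR1, a zinc finger transcription factor, was at 24.9, 36.6, 30.9 and 29.1 CPM in the 4 coculture libraries and at 1.63, 3.05, 3.37 and 2.70 CPM in monoculture. Every coculture library was above every monoculture library, and the log2 fold change was 3.47 ± 0.132 (SE; edgeR adjusted p = 1.53e-18), about 11.05-fold. The orphan nuclear receptor NR4A1 was at 23.7, 23.2, 21.6 and 20.5 CPM in coculture and at 9.17, 9.45, 8.11 and 6.59 CPM in monoculture. The groups were again apart, with a change of 1.4 ± 0.0990 (adjusted p = 8.13e-12). Its relative NR4A2 stood at 7.56 to 9.15 CPM against 3.90 to 4.96 CPM, a rise of 0.88 ± 0.124. The AP-1 subunit JUN rose by 0.57 ± 0.0838, at 75.1 to 89.7 CPM in coculture against 51.0 to 60.2 CPM. FOS, the partner of JUN, rose by 0.58 (adjusted p = 0.00527), but within lane 6 alone its change was 0.549 with an adjusted p of 0.0618.

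Of 25 immediate early genes listed, 10 rose and 3 fell (40% and 12%, against 11.5% and 12.2% of all genes), with a median log2 fold change of 0.075. The falls were FOSL1 (-0.43), KLF4 (-0.20) and IER5 (-0.19), and FOSL1 and KLF4 were not called within lane 6 alone (adjusted p = 0.123 and 0.0977). The feedback genes of the ERK cascade, which growth factor receptors switch on together with this class, did not share one direction. Of 18 listed, 4 rose and 3 fell. ERRFI1, an inhibitor of the EGF receptor, rose by 0.72 ± 0.0944, and the phosphatase gene DUSP1 by 0.29 ± 0.0544. ETV4, an ETS factor induced by FGF signals, fell by 1.26 ± 0.185 on the log2 scale, at 1.26 to 2.28 CPM in coculture against 2.89 to 4.72 CPM in monoculture. DUSP6, the phosphatase that acts on ERK itself, was at 2.09 to 4.34 CPM against 1.51 to 2.90 CPM. Its ranges overlapped, and its call (0.57, adjusted p = 0.0313) was lost without coculture replicate 2, 3 or 4 or monoculture replicate 1 or 2, with changes between 0.436 and 0.737 over all the alternatives tried.

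Phosphodiesterases break down cyclic AMP and so end its signal. PDE4B, which had the second largest rise after EGR1 among the genes named for their size without overlap, was at 7.0, 5.46, 4.12 and 5.22 CPM in coculture and at 0.817, 0.752, 0.421 and 0.377 CPM in monoculture. The change was 3.16 ± 0.346 (adjusted p = 4.18e-08), and no library of one culture entered the range of the other. PDE7B rose by 1.05 ± 0.128, at 8.19 to 9.91 CPM against 3.52 to 4.83 CPM. PDE3A rose by 0.55 ± 0.0702. The largest falls on the list were in genes that make or pass on the signal. The cyclic AMP sensor RAPGEF3 fell by 0.75 ± 0.133 on the log2 scale, the adenylyl cyclase ADCY5 by 0.66 ± 0.166 and PTGER4, a receptor for prostaglandin E2 that couples to cyclic AMP, by 0.59 ± 0.0797. Of 32 cyclic AMP genes listed, 8 rose, 6 fell and 18 were not called.

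**Figure D2:**
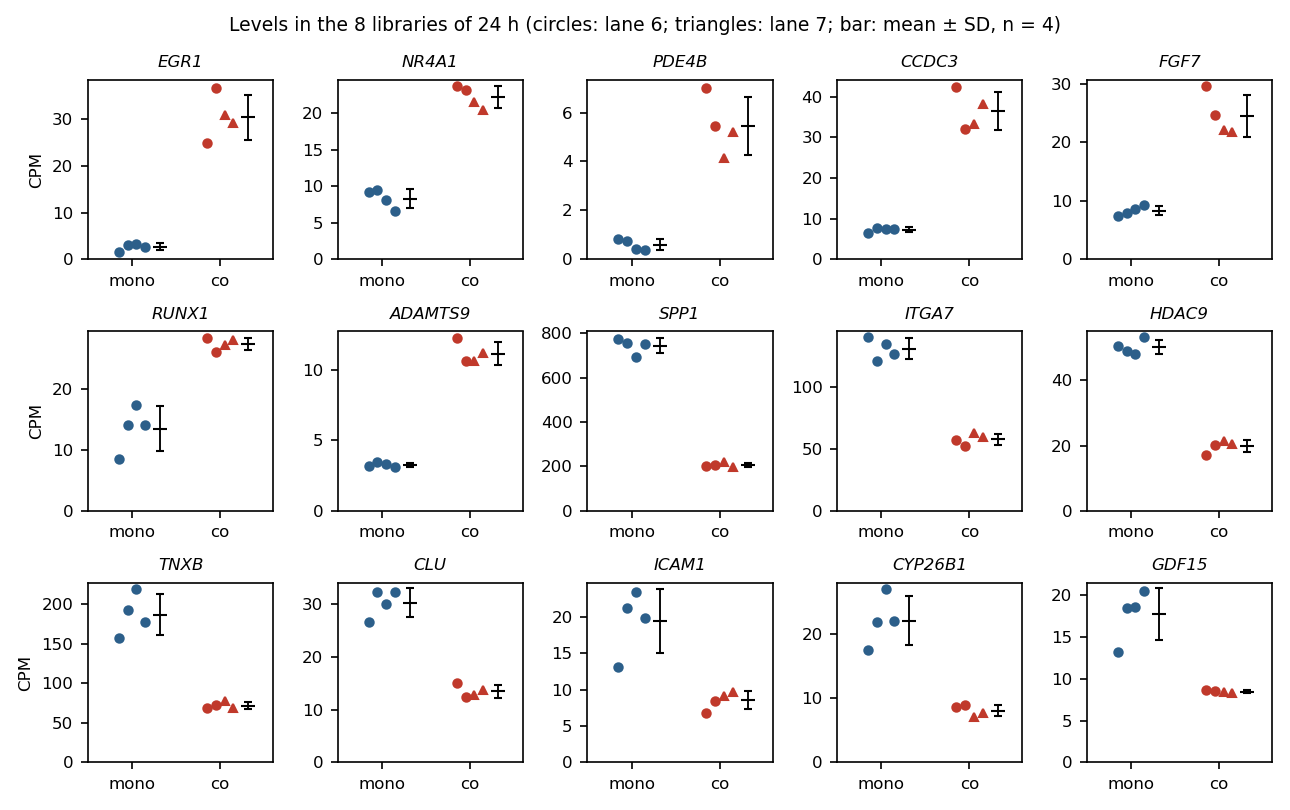
CPM of 15 named genes in each library of 24 h, monoculture in blue and coculture in red, with circles for lane 6, triangles for lane 7 and black bars for the mean ± SD of 4 libraries. These genes were named for size among genes without overlap, so by that rule the coculture points lie wholly above or wholly below the monoculture points.

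Among secreted growth factors, FGF7 moved most. FGF7 is made by mesenchymal cells and acts on the epithelial form of FGF receptor 2. It was at 29.5, 24.7, 22.1 and 21.7 CPM in coculture and at 7.48, 7.90, 8.58 and 9.29 CPM in monoculture (1.56 ± 0.111, adjusted p = 9.01e-12). The groups did not overlap. CSF1, the macrophage colony stimulating factor, fell by 0.71 ± 0.0704 on the log2 scale. HGF, the ligand that activates satellite cells through MET, was at 2.07 to 2.45 CPM against 1.58 to 1.76 CPM without being called (0.44, adjusted p = 0.137). MET itself fell by 0.54 ± 0.0926. Of 18 ligands 3 rose and 6 fell (2 and 3 within lane 6 alone), and of 18 receptors 3 rose and 8 fell. PDGFRA, the PDGF receptor of fibro-adipogenic progenitors, was one of the receptor rises, at 65.3 to 72.6 CPM against 48.9 to 52.0 CPM (0.47 ± 0.0583). The 21 fibroblast and fibro-adipogenic markers as a list went both ways, with 6 rises and 5 falls. Their median was 0.091 in all libraries and -0.036 within lane 6 alone, and 3 fell without coculture replicate 2 or without monoculture replicate 3. TYRO3, a receptor for GAS6, fell by 0.57 ± 0.0751, and GAS6 fell by 0.46 ± 0.0876. Within the IGF system IRS2, an adaptor of the insulin and IGF receptors, rose by 0.78 ± 0.103 and IGFBP4 by 0.56 ± 0.0427, while IGFBP2 fell by 0.32 ± 0.0459 (3 rises and 3 falls among 10 listed).

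TGF-beta and BMP genes went both ways. GDF15, a stress-induced member of the family, was at 8.61, 8.53, 8.42 and 8.28 CPM in coculture and at 13.3, 18.5, 18.6 and 20.5 CPM in monoculture. This was a change of -1.07 ± 0.118 (adjusted p = 4.89e-08), and the coculture libraries were nearly level while monoculture replicate 1 was the lowest of its group. The inhibitory SMAD7 was at 15.9 to 19.1 CPM against 25.6 to 29.8 CPM, and its log2 change was -0.675 (adjusted p = 7.35e-08). BMP4 fell by 0.52 ± 0.0897. All LTBP genes listed, whose products hold latent TGF-beta in the matrix, fell: LTBP1 by 0.30, LTBP2 by 0.48, LTBP3 by 0.35 and LTBP4 by 0.28 on the log2 scale, each without overlap. TGFBR3, the co-receptor betaglycan, rose by 0.54 (adjusted p = 0.00842), and TGFBR1 by 0.29. NOG, which binds and blocks BMPs, rose by 0.67 ± 0.106. Of 44 genes 9 rose and 15 fell in all libraries, and 3 rose and 14 fell in lane 6 alone, where TGFBR1 had an adjusted p of 0.0643.

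Satellite cell genes were mostly lower. ITGA7, the integrin chain with which muscle cells bind laminin, was at 57.2, 52.0, 62.6 and 59.8 CPM in coculture and at 140, 121, 135 and 126 CPM in monoculture (-1.17 ± 0.0808, adjusted p = 4.53e-12). Each coculture library was below each monoculture library. NES, the intermediate filament nestin of activated muscle precursors, fell by 0.57 ± 0.0815, CD82 by 0.44 ± 0.0623 and NCAM1 by 0.40 ± 0.0752. SDC4, a heparan sulphate proteoglycan of satellite cells, was the exception with a rise of 0.26 ± 0.0634 and overlapping ranges. Of 12 satellite cell genes listed, 8 fell and 1 rose, with a median of -0.332. DES, the muscle intermediate filament desmin, was at 86.2 to 110 CPM in coculture and 94.0 to 108 CPM in monoculture, a change of -0.01 ± 0.0616 (adjusted p = 0.920).

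Regulators of the muscle programme went both ways, 8 up and 8 down of 29. HDAC9, a class IIa histone deacetylase that represses MEF2, was at 17.2, 20.2, 21.4 and 20.6 CPM in coculture and at 50.6, 48.9, 48.1 and 53.1 CPM in monoculture. The groups were far apart (-1.33 ± 0.107, adjusted p = 8.50e-11). HDAC4 of the same class rose by 0.45 (adjusted p = 0.00139). TEAD1, the DNA-binding partner of YAP, rose by 0.72 ± 0.0953, EYA2, a transcriptional co-activator, by 0.51 ± 0.0713 and the TEAD cofactor VGLL3 by 0.50 ± 0.0612. RUNX1 was at 28.3, 26.2, 27.3 and 28.1 CPM against 8.54, 14.1, 17.4 and 14.1 CPM (1.01 ± 0.107). The coculture libraries of this transcription factor were nearly level, and monoculture replicate 1 was the lowest.

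Of 47 sarcomere genes only 13 were listed, and 5 of these fell and none rose (by edgeR, with MYOM1, CASQ2 and TCAP the largest). The falls were 3 without monoculture replicate 1 and within lane 6 alone, and 1 gene rose without monoculture replicate 3. MYOM1, the M-band protein myomesin, was at 2.63 to 3.97 CPM against 6.56 to 7.35 CPM, a change of about -1.07 ± 0.134 (adjusted p = 5.13e-07). CASQ2, the calcium store protein calsequestrin, was at 2.33 to 3.71 CPM against 4.08 to 5.78 CPM. TCAP, the Z-disc protein telethonin, was at 2.86 to 4.41 CPM against 4.64 to 5.47 CPM. MYOG, MYMK and MYH3, the genes by which myoblast differentiation and fusion are usually followed, were not among the genes listed.

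**Figure D3:**
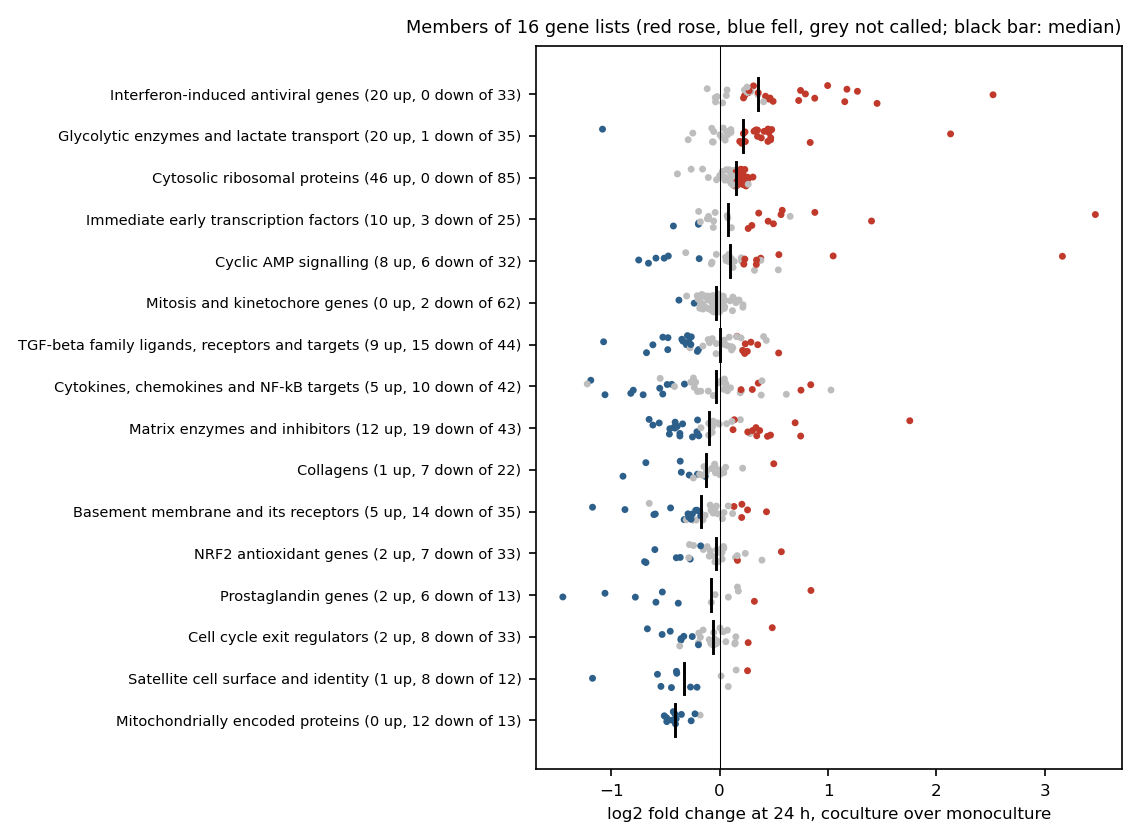
Log2 fold change at 24 h of the members of 16 gene lists, with rises in red, falls in blue, genes not called in grey and the median as a black bar. Interferon-induced genes had 20 rises and no fall and mitochondrially encoded genes 12 falls and no rise, while most other lists hold both colours.

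Matrix genes held the largest named fall. SPP1, the secreted phosphoprotein osteopontin, was at 201, 208, 220 and 196 CPM in coculture and at 773, 756, 694 and 752 CPM in monoculture (-1.85 ± 0.0545, adjusted p = 1.66e-21), or 3.605-fold lower without overlap. CD44, a receptor of osteopontin and hyaluronan, was lower too, at 210 to 229 CPM against 330 to 343 CPM (-0.61 ± 0.0662). TNXB, the matrix glycoprotein tenascin X, was at 69.0, 73.1, 77.3 and 68.5 CPM against 158, 193, 219 and 178 CPM (-1.38 ± 0.0984). CLU, the extracellular chaperone clusterin, was at 12.4 to 15 CPM against 26.6 to 32.3 CPM (-1.18 ± 0.0754). The proteoglycan DCN, decorin, went the other way, at 264 to 298 CPM against 120 to 188 CPM (0.76 ± 0.0878), with its lowest value in monoculture replicate 1. Of 38 matricellular, elastic and proteoglycan genes 6 rose and 12 fell, while the median of the list was 0.029.

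Collagens showed 7 falls and 1 rise among 22 listed. COL27A1, a fibrillar collagen, fell by 0.89 ± 0.0940 on the log2 scale and COL7A1, the anchoring fibril collagen, by 0.68 ± 0.114, while COL5A3 rose by 0.50 (adjusted p = 0.00155). COL1A1, the main chain of type I collagen, was at 37668 to 43098 CPM in coculture and 39690 to 44967 CPM in monoculture, and its change of -0.04 ± 0.0388 was not called (adjusted p = 0.455). Basement membrane genes and their receptors had 14 falls and 5 rises among 35, with a median of -0.175. The rises were 3 without coculture replicate 2 or monoculture replicate 1. LAMA3, a laminin chain, was at 7.83 to 9.62 CPM against 11.9 to 17.5 CPM (-0.87 ± 0.115), and ITGA11, a collagen-binding integrin chain, rose by 0.43.

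Enzymes that cut or link the matrix also moved in both directions. The rises were led by ADAMTS9, a protease of proteoglycans, at 10.6 to 12.3 CPM against 3.14 to 3.47 CPM (1.75 ± 0.154, adjusted p = 5.56e-10). ADAMTS5, the aggrecan-cutting relative, rose by 0.75 ± 0.124 and MMP19 by 0.70 ± 0.0955. The falls held the crosslinking transglutaminase TGM2 (-0.65 ± 0.117), the plasminogen activators PLAU (-0.41 ± 0.0423) and PLAT (-0.46 ± 0.05), the gelatinase MMP2 (-0.37 ± 0.0504) and its membrane-bound activator MMP14 (-0.42 ± 0.0538). In each of these the 4 coculture libraries were all below the monoculture libraries. Of 43 listed, 12 rose and 19 fell.

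Inflammatory genes went both ways. ICAM1, the leukocyte adhesion receptor and an NF-kB target, was at 6.82, 8.48, 9.05 and 9.68 CPM in coculture and at 13.1, 21.2, 23.3 and 19.8 CPM in monoculture (-1.19 ± 0.159, adjusted p = 1.26e-06). Monoculture replicate 1 was nearest to the coculture values, but there was no overlap. The NF-kB subunit RELB fell by 0.53 ± 0.112 and BIRC3, an inhibitor of cell death, by 0.48 ± 0.0887. OSMR, the oncostatin M receptor, rose by 0.75 ± 0.0848 and complement C3 by 0.84 (adjusted p = 0.0138). IL6 was at 2.81 to 3.71 CPM against 0.942 to 1.92 CPM, apart but not called (1.03, adjusted p = 0.158). It was called within lane 6 alone (1.107, adjusted p = 0.00988). Of 42 genes of this list, 5 rose and 10 fell (11.9% rose, against 11.5% of all genes). With lane as a covariate 5 rose and 6 fell.

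Prostaglandins are made from arachidonic acid by a cyclooxygenase and a terminal synthase. PTGES, the prostaglandin E synthase, was at 0.837 to 1.17 CPM against 2.07 to 3.05 CPM (-1.45 ± 0.231) and PTGIS, the prostacyclin synthase, at 43.4 to 47.7 CPM against 73.4 to 86.2 CPM (-0.78 ± 0.0712). PTGS2, the inducible cyclooxygenase, was at 1.06 to 2.29 CPM against 3.01 to 3.58 CPM (-1.06, adjusted p = 0.0271). Its call was lost without coculture replicate 2 or 4 or monoculture replicate 1 or 2, with changes of -1.27 to -0.906 over all alternatives. Of 13 prostaglandin genes 2 rose and 6 fell, with 1 rise in each fit that left out a library other than coculture replicate 4 or monoculture replicate 2.

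Of 33 antioxidant genes under NRF2, 7 fell (21.2%) and 2 rose (6.06%), against 12.2% and 11.5% of all genes. There was 1 rise without coculture replicate 1 or 3 or monoculture replicate 1 or 4. Heme oxygenase HMOX1 was at 10.3 to 11.7 CPM against 16.1 to 19.2 CPM (-0.69 ± 0.0751), thioredoxin reductase TXNRD1 at 260 to 286 CPM against 396 to 492 CPM (-0.68 ± 0.0808). SQSTM1, an autophagy receptor that also holds back the NRF2 inhibitor, was not on this list. It was at 169 to 181 CPM against 282 to 287 CPM (-0.71 ± 0.0418, edgeR adjusted p = 1.53e-13). The glutathione transferase MGST1 went the other way, at 46.2 to 49.5 CPM against 30.0 to 33.9 CPM (0.57 ± 0.0614).

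Of 39 chaperone genes 5 rose and 5 fell, or 12.8% each way, near the 11.5% and 12.2% of all genes. The rises were 3 without coculture replicate 1, monoculture replicate 3 or monoculture replicate 4. The small heat shock protein genes HSPB7 and HSPB8 fell, by 0.67 ± 0.0888 and 0.52 ± 0.0824 on the log2 scale, while HSPA8, the constitutive HSP70, rose by 0.23.

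Cell cycle genes differed by list. CDKN1A, the p21 inhibitor that marks cell cycle exit in myoblasts, was at 215 to 229 CPM in coculture and 297 to 378 CPM in monoculture (-0.67 ± 0.0532, adjusted p = 8.08e-11). GADD45B fell by 0.53 ± 0.114, and the G1 kinase CDK6 rose by 0.48. Of 33 exit regulators 8 fell and 2 rose (1 rise without coculture replicate 1 or monoculture replicate 3). MKI67, a marker of dividing cells, was at 121 to 152 CPM against 118 to 145 CPM (-0.03 ± 0.0786, adjusted p = 0.800). Of 62 mitosis genes 2 fell (3.23%, against 12.2% of all genes), HMMR (-0.38 ± 0.0865) and NUF2 (-0.23), and none rose. NUF2 lost its call in 6 of the 8 fits that left out 1 library. Without coculture replicate 2, the library rich in ribosomal RNA, 6 mitosis genes fell. There were 4 falls without monoculture replicate 1, and 1 fall without coculture replicate 3, coculture replicate 4 or monoculture replicate 2. Of 49 DNA replication genes 8 rose (16.3%) and 2 fell (4.08%), against 11.5% and 12.2% of all genes. Their median was 0.117, and they were led by the replication complex subunit gene GINS1 (0.33). The rises were 5 without coculture replicate 2, coculture replicate 4 or monoculture replicate 1.

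Of 18 retinoic acid genes 4 rose and 4 fell (22.2% each way, against 11.5% and 12.2% of all genes), and 2 fell without monoculture replicate 1. CYP26B1, which breaks retinoic acid down, was at 8.55, 8.95, 7.10 and 7.61 CPM in coculture and at 17.5, 21.8, 26.9 and 22 CPM in monoculture (-1.46 ± 0.138, adjusted p = 2.64e-09). RDH10, which makes its precursor, rose by 0.52 ± 0.0431, at 175 to 189 CPM against 122 to 129 CPM. The retinol transporter gene STRA6 fell by 0.93 (adjusted p = 0.00653).

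Glycolytic genes were mostly higher. SLC16A3, a lactate exporter, was at 3.23, 2.17, 1.66 and 3.24 CPM in coculture and at 0.377, 0.711, 0.421 and 0.816 CPM in monoculture (2.13 ± 0.282). HK2, a hexokinase, was at 16 to 21.9 CPM against 9.61 to 11 CPM (0.83 ± 0.0927) and PGAM1 at 511 to 547 CPM against 359 to 411 CPM (0.48 ± 0.0504). The hexokinase HK3 was the only glycolytic fall, at 6.24 to 7.36 CPM against 11.8 to 16.6 CPM (-1.08 ± 0.101). Of 35 listed, 20 rose and 1 fell, and within lane 6 alone 19 rose and 1 fell. Of 13 mitochondrially encoded protein genes 12 fell, and mitochondrial protein transcripts took 2.14 to 2.36% of counts in coculture and 2.81 to 3.26% in monoculture. Of 83 nuclear genes of oxidative phosphorylation, 5 rose (6.02%) and 1 fell (1.2%), both below the shares over all genes. There was 1 rise and there were 2 falls without monoculture replicate 3, and 3 rises without coculture replicate 4 or monoculture replicate 4. The 85 cytosolic ribosomal protein genes had 46 rises and no fall at a median of 0.146. That count rested on single libraries: it was 25 without monoculture replicate 3, 65 without monoculture replicate 1 and 17 within lane 6 alone.

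Interferon-induced antiviral genes rose in 20 of 33 cases and none fell (median 0.353). MX1, a GTPase that blocks viral replication, was at 5.44, 14, 8.76 and 18.1 CPM in coculture and at 2.26, 1.71, 2.79 and 1.51 CPM in monoculture (2.52 ± 0.263, adjusted p = 1.78e-08). IFI6, an interferon-induced membrane protein, was at 4.96, 11.7, 10.3 and 13.5 CPM against 4.65, 4.81, 4.37 and 4.58 CPM (1.15 ± 0.185). Coculture replicate 1 was close to monoculture for IFI6 and below 1 monoculture library for the protease USP18, which was at 4.01, 9.17, 7.96 and 10.5 CPM against 5.53, 3.68, 4.32 and 4.21 CPM. In 17 of the 20 called genes replicate 1 was the lowest coculture library. The median of the 20 over their monoculture mean was 0.328, 0.777, 0.567 and 0.769 on the log2 scale in coculture replicates 1 to 4. The oxysterol enzyme gene CH25H did not share this order, with its highest value in replicate 1 (8.13 CPM, against 5.63 to 6.59 CPM in the others and 2.42 to 3.39 CPM in monoculture). The rises in this list numbered 23 without coculture replicate 1 and 14 within lane 6 alone. The list of interferon signalling and class I antigen processing genes went both ways, with 8 rises and 6 falls among 36 and a median of 0. TAP1, the peptide transporter, fell by 0.41 ± 0.0687, and NLRC5, which activates class I genes, by 0.72 ± 0.172.

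**Figure D4:**
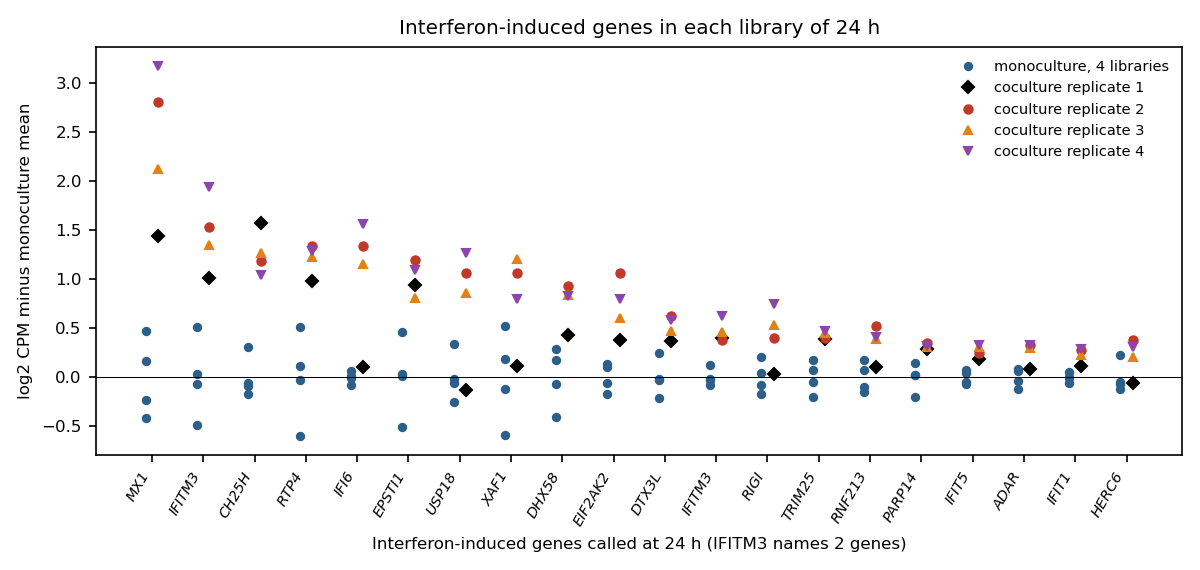
Log2 CPM minus the mean of the 4 monoculture libraries for the 20 interferon-induced genes called at 24 h, ordered by fold change, with 1 symbol per coculture replicate. Coculture replicate 1, in black, is the lowest coculture library in 17 of the 20 genes.

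Several genes among the largest changes belong to none of these groups. CCDC3, a secreted protein linked to lipid handling, was at 42.3, 32, 33.3 and 38.4 CPM in coculture and at 6.41, 7.82, 7.53 and 7.53 CPM in monoculture (2.31 ± 0.123, adjusted p = 1.37e-14). The groups did not overlap. TSHZ2, a zinc finger factor (1.22), WDR86 (0.99), KCTD12 (0.97) and NCALD, a calcium sensor (0.93), rose. FAM180A (-1.27), MAMDC2 (-1.20), CRTAC1 (-1.08), the receptor ligand gene ALKAL1 (-1.07) and the glycosyltransferase gene MGAT5B (-1.04) fell. All 30 genes named for the size of their change kept their call under every alternative tried. They had been picked from these same libraries as the largest called changes without overlap, which favours that outcome. Of the 8 rises named for timing 6 kept their 24 h call throughout, and so did 6 of the 8 falls.

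The effect of coculture at 24 h was set against its effect in proliferation and at 72 h through interaction terms of the same fit. The 3 effects rest on separate libraries, and each difference uses the 24 h libraries. At 72 h the 4 coculture libraries were in lane 7 and the 4 monoculture libraries in lane 6, so at that time culture and lane cannot be told apart. In proliferation all 8 libraries were in lane 6. The effect differed from that in proliferation in 6026 genes (50.5%) and from that at 72 h in 2826 genes (23.7%). In 203 genes (1.7%) the effect at 24 h was called and beyond both others in its own direction, 97 rises (0.813%) and 106 falls (0.888%). With DESeq2 size factors in edgeR 202 genes met the rule, 193 of them among the 203. The set moved more where libraries were left out, scaling was left out or lane was fitted. The fits without 1 library of 24 h kept 152 to 170 of the 203. Without the 4 libraries rich in ribosomal RNA 202 genes met the rule, 149 of them shared. With library sizes alone 229 genes met the rule, 123 of them shared, and with lane as a covariate 112, 110 of them shared.

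EGR1 led this set. Its coculture effect was 1.05 in proliferation, 3.47 at 24 h and 0.62 at 72 h, so the difference was 2.42 from proliferation (adjusted p = 1.53e-09) and 2.85 from 72 h (adjusted p = 7.51e-14). NR4A1 went from 0.86 through 1.4 to -1.13, and NR4A2 from 0.10 through 0.88 to -1.11. Of 25 immediate early genes 17 had a higher effect at 24 h than at 72 h by the interaction test and 3 a lower one, against 11.7% and 12% of all genes. JUN, with effects of 0.25, 0.57 and -0.45, and DUSP1, with -0.07, 0.29 and -0.72, were higher at 24 h than at both other times. NOG went from 0.12 through 0.67 to -0.87, and MATN3, a cartilage matrix protein, from -0.12 through 0.61 to -0.32. ENO3, the muscle enolase, went from -0.83 through 0.22 to -0.85, while the 35 glycolytic genes had medians of 0.189, 0.219 and 0.148. Its small rise at 24 h (adjusted p = 0.0445) was lost in 6 of the 8 fits without 1 library and within lane 6 alone (0.164, adjusted p = 0.291).

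Among the falls of the set, IQGAP3, a scaffold of proliferating cells, had effects of 0.46, -0.46 and 0.84, and was at 58.7 to 70.5 CPM in coculture and 72.6 to 95.3 CPM in monoculture at 24 h. CCNF, a cyclin, went from 0.65 through -0.30 to 1.13, and TROAP, a spindle protein, from 0.49 through -0.35 to 1.14. Within lane 6 alone the 24 h change was -0.215 for CCNF (adjusted p = 0.184) and -0.278 for TROAP (adjusted p = 0.0747). The call of CCNF was also lost without coculture replicate 3 or monoculture replicate 2. Of the 62 mitosis genes none belongs to the set, by edgeR, and of 49 DNA replication genes 1 does. A lower effect at 24 h than at 72 h was called in 60 of the 62 mitosis genes, against 12% of all genes. CLU, at -0.13, -1.18 and -0.08, CD40, a receptor of the TNF family, at 0.16, -0.70 and 0.53, and TAP1, at 0.37, -0.41 and 0.55, were also lowest at 24 h. OLR1, a receptor for oxidised lipoprotein, went from 0.60 through -0.55 to 0.31. IER5L went from 0.30 through -0.45 to 0.33, and its difference from 72 h was not called without the 4 libraries rich in ribosomal RNA (-0.494, adjusted p = 0.0755).

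**Figure D5:**
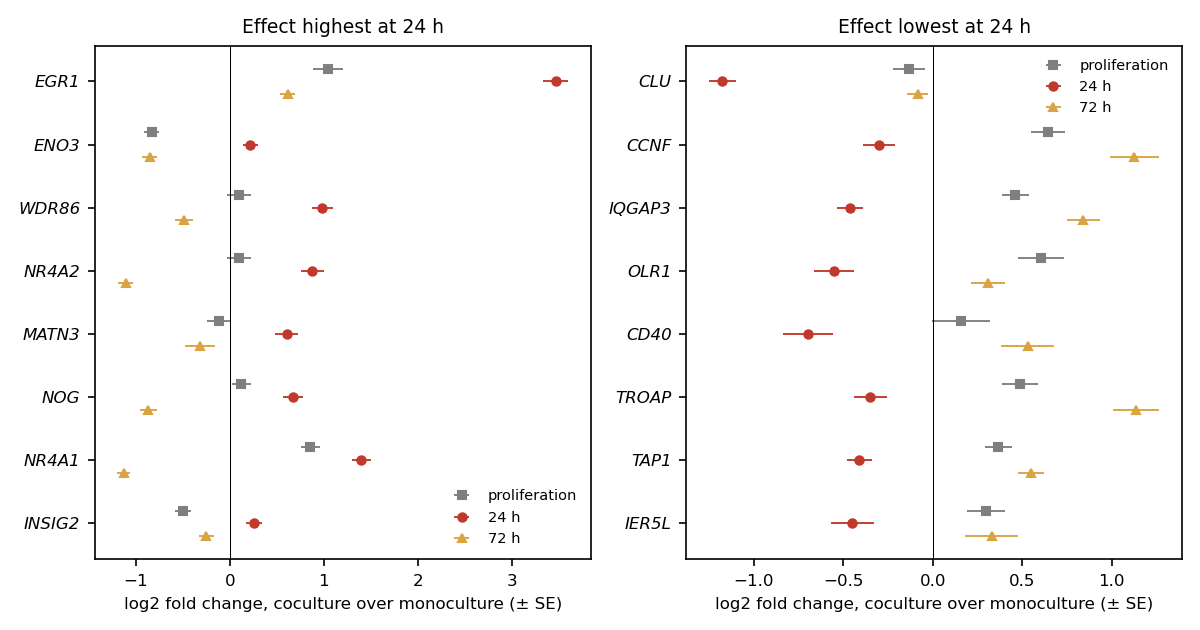
Coculture effect (log2 fold change, with SE bars) in proliferation (grey squares), at 24 h (red circles) and at 72 h (yellow triangles) for 8 rises and 8 falls. These were ranked by the smaller of their differences from the other 2 times. By that choice the red circles are the highest of the 3 in the left panel and the lowest in the right panel. The 24 h calls of ENO3, INSIG2, CCNF and TROAP were lost under some alternatives.

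Other genes had 24 h values that lay between or beside those of the other times. ITGA7 changed by -0.16, -1.17 and -2.01, MYOM1 by 0.08, -1.07 and -1.92 and PDGFRA by -0.14, 0.47 and 1.38, and in all 3 both differences were called. SPP1, at -1.30, -1.85 and -1.98, differed from proliferation (-0.55, adjusted p = 6.88e-07) and was not called against 72 h (0.13, adjusted p = 0.229). FGF7, at 0.22, 1.56 and 2.04, differed from both. MX1, at 2.41, 2.52 and 4.06, was not called against proliferation (0.11, adjusted p = 0.846) and was lower than at 72 h (-1.54, adjusted p = 0.00460). CYP26B1, at -1.4, -1.46 and -1.76, was not called against either time. CDKN1A was the exception here. At -0.46, -0.67 and -0.35 it was lowest at 24 h and differed from both (-0.20 and -0.32), so it belongs to the set that EGR1 led.

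The authors' deposited table for this time calls 2526 genes at an adjusted p under 0.05, 1238 higher and 1288 lower in coculture. Of these 2399 were also among the 2836 above, all in the same direction, which is 95% of the deposited calls and 84.6% of the 2836. Positions come from the authors' deposited table for proliferation, which does not name the genome build. EGR1 (ENSBTAG00000010069) is placed on chromosome 7 at 49826480 to 49830253, PDE4B (ENSBTAG00000008636) on chromosome 3 at 78957184 to 78977111 and CCDC3 (ENSBTAG00000040490) on chromosome 13 at 11479616 to 11570661. SPP1 (ENSBTAG00000005260) lies on chromosome 6 at 36693206 to 36700390, ITGA7 (ENSBTAG00000012897) on chromosome 5 at 57548782 to 57572012 and FGF7 (ENSBTAG00000051898) on chromosome 10 at 60792964 to 60853417.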

How the data were processed

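RNA-seq of bovine satellite cells in 6 groups of 4 libraries gave the data. The deposited count table holds whole numbers per gene and library that may be rounded RSEM estimates. Per the submitters' processing notes FastQC, STAR, RSEM and DESeq2 were used, and versions and genome build are not given in the sources used here. The authors' deposited table for 24 h holds log2 fold changes and p-values of their own model, read for its calls alone. Symbols and positions come from the deposited table for proliferation. Of the library columns, 24 match a label and 12 match none and were not used.

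Counts of 11937 genes were fitted in R 4.3.3 with edgeR 4.0.16: TMM factors, 1 mean per group over all 24 libraries (18 residual degrees of freedom), quasi-likelihood F tests and Benjamini-Hochberg adjustment. The filterByExpr rule removed 0 genes. An SE was taken as |log2 fold change| divided by the root of F. The interaction terms compare the coculture effect between times. The fit was tested on simulated data. DESeq2 1.42.0, other scalings, filters, lanes and left-out libraries were the alternatives.

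Samples were grouped by title. Named genes are the 15 largest called rises and 15 largest called falls with a unique symbol, no overlap and 5 CPM or more in the higher culture. Others are 8 rises and 8 falls of the 24 h set, ranked by the smaller of their differences from the other 2 times. The rest are up to 3 members each way of each of 49 lists (1062 of 1393 symbols listed) and a fixed set of markers. JUN, HDAC4, BMP4, CD82, PLAU, PLAT, MMP2, MMP14, RELB, BIRC3, USP18 and the LTBP genes were added after their values were seen, as was 5_8S_rRNA. Members and lists were chosen with earlier results of these data known. The values of 2 list members are not reported here.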

Additional observations from a re-analysis of the deposited data

Results flagged for a closer look

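In 7 genes 1 library lay far from the other 3 of its group, which chance gives in about 1 of 20 groups. Every gene named for size, for timing or as a fixed marker was screened in both cultures. With that many groups, several such cases are due by chance. These were CRTAC1 in monoculture replicate 3 (9.9 CPM), ALKAL1 in coculture replicate 1 (4.01 CPM), MATN3 in monoculture replicate 4 (19.5 CPM), CCNF in monoculture replicate 1 (27.7 CPM), IQGAP3 in coculture replicate 2 (70.5 CPM), TAP1 in monoculture replicate 1 (22.2 CPM) and PDGFRA in monoculture replicate 3 (52 CPM).

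The coculture effect at 24 h differed from that in proliferation, by the interaction term, in 31 of the genes named for size or for timing. Those named for timing were chosen by passing this test, and the share over all genes was 50.5%. The difference (24 h minus proliferation, log2) was above 0 for EGR1 (2.42), PDE4B (1.70), CCDC3 (1.4), FGF7 (1.34), TSHZ2 (1.12), ENO3 (1.05), RUNX1 (0.97), WDR86 (0.89), NR4A2 (0.78), INSIG2 (0.76), MATN3 (0.73), NOG (0.55), NR4A1 (0.54), NCALD (0.52) and KCTD12 (0.43). It was below 0 for MGAT5B (-1.24), OLR1 (-1.15), MYOM1 (-1.14), CLU (-1.04), ITGA7 (-1.01), HK3 (-0.99), CCNF (-0.95), CRTAC1 (-0.94), IQGAP3 (-0.92), CD40 (-0.85), TROAP (-0.84), TAP1 (-0.78), IER5L (-0.75), ICAM1 (-0.68), SPP1 (-0.55) and HDAC9 (-0.46).

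The effect at 24 h differed from that at 72 h in 31 of the genes named for size or for timing. Those named for timing were again chosen by passing this test, and the share over all genes was 23.7%. The difference (24 h minus 72 h, log2) was above 0 for EGR1 (2.85), NR4A1 (2.53), NR4A2 (1.98), NOG (1.54), WDR86 (1.47), HDAC9 (1.45), HK3 (1.45), ALKAL1 (1.32), ENO3 (1.07), MATN3 (0.93), MYOM1 (0.85), ITGA7 (0.84), CH25H (0.70), TNXB (0.68) and INSIG2 (0.51). It was below 0 for MX1 (-1.54), TROAP (-1.49), CCNF (-1.43), IQGAP3 (-1.30), CD40 (-1.23), IFI6 (-1.14), CLU (-1.09), ADAMTS9 (-1.04), TAP1 (-0.96), PDE7B (-0.94), NCALD (-0.94), ICAM1 (-0.88), OLR1 (-0.86), IER5L (-0.78), CCDC3 (-0.58) and FGF7 (-0.48).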

How the results depend on the processing

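The count of genes called at 24 h stayed within 1.5 times of 2836 in all alternatives but 1. With lane 6 alone, a fit with 2 coculture libraries of 24 h in place of 4, 1746 were called. Leaving out each library gave 2329 to 2627, library sizes alone 2450, the DESeq2 Wald test 2757 and lane as a covariate 1977. No gene called both ways changed direction. The genes with a larger effect at 24 h than at both other times numbered 112 with lane as a covariate and 160 to 231 without 1 library, against 203. The fit with replicate number as a block called 2792 genes, 2644 of them among the 2836. No label says whether the numbers pair the samples. Same-numbered libraries of the 2 cultures correlated at 0.119, -0.127, 0.084 and -0.071 in their deviations, and so few libraries cannot decide it. The interaction with 72 h could not be fitted in lane 6 alone or with the 8 libraries of 24 h, since the groups needed are absent. Genes under 6 counts in any library were not analysed here.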

Other observations

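Lists outside the groups above held further named changes at 24 h. Hypoxia targets outside glycolysis rose in 14 of 30 cases and fell in 4, with the oxidase gene ERO1A and the mitophagy receptor BNIP3L among the rises. The largest change on the list was the fall of HMOX1 (-0.693), and the largest rise was 0.508. The summed level of the list was lower in coculture, at 11340 to 11660 CPM against 13410 to 14720 CPM in monoculture. These targets rose in 8 and fell in 4 cases within lane 6 alone. Among 12 adipocyte and lipid droplet genes 5 rose and 3 fell (3 rises without coculture replicate 4, 2 within lane 6 alone): the droplet coat protein PLIN2 was at 136 to 151 CPM in coculture and 82.5 to 84.7 CPM in monoculture (0.79 ± 0.0465, edgeR adjusted p = 1.53e-13), and the fatty acid carrier FABP4 at 14 to 15 CPM against 21.1 to 24.5 CPM (-0.62 ± 0.0831). The AMPK-related kinase gene NUAK2, on the list of YAP targets, was at 30.7 to 34.1 CPM against 56.7 to 60.6 CPM (-0.84 ± 0.0568), while that list had 7 rises and 10 falls among 28. In the Notch pathway the target HES1 was at 18.1 to 19.6 CPM against 26.6 to 31.0 CPM (-0.64 ± 0.0642) and the DNA-binding partner RBPJ rose by 0.44. Of 20 Notch genes 2 rose (10%) and 5 fell (25%), against 11.5% and 12.2% of all genes. There were 3 falls without coculture replicate 1 or monoculture replicate 1. The pericyte markers CSPG4, at 174 to 200 CPM against 256 to 331 CPM, and MCAM, at 9.69 to 11.7 CPM against 13.1 to 14.5 CPM, were lower without overlap, and 4 of 6 pericyte genes fell (2 without coculture replicate 2 or monoculture replicate 3).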
